A study of Mus musculus with 12 samples.

Results

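The T-box genes encode transcription factors that bind DNA through a shared domain, the T-box. Here 10 of them, Tbx1, Tbx2, Tbx3, Tbx4, Tbx5, Tbx6, Tbx15, Tbx18, Tbx20 and Tbx21, were examined for the sites of the histone mark H3K27me3 that lay in or near them in fibroblasts. A site was assigned to a gene if it overlapped the gene body, as annotated by GENCODE on mm10 (GRCm38), or the 20 kb on either side, together called the window. The 10 genes were taken from 21755 protein-coding genes, and their windows held 71 of the 101389 listed sites. No site was counted for more than 1 gene.

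T-box factors act in the embryo, where many are switched on in narrow territories of mesoderm, limb and heart and stay silent elsewhere. H3K27me3 is written by Polycomb repressive complex enzymes and marks genes of this kind in cells that do not use them, often from CpG-rich promoters outward. Tbx2 with Tbx4, and Tbx3 with Tbx5, lie next to each other as linked pairs that arose by duplication of an ancestral pair.

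The cells were iMEF cells, immortalized mouse embryo fibroblasts from conditional Ash2l knockout animals. In every group exon 4 of the endogenous Ash2l gene had been removed with 4-hydroxytamoxifen, and the cells lived on human ASH2L fused to an FKBP domain and an HA tag, supplied by a lentivirus in a line grown from a single clone. ASH2L is a subunit of the COMPASS complexes, which methylate lysine 4 of histone H3, and the compound dTAG directs the fusion protein to degradation. H3K27me3 was profiled by chromatin immunoprecipitation and sequencing in 8 libraries, 2 without dTAG and 2 after each of 16 h, 24 h and 48 h of dTAG, beside 4 inputs from untreated cells and cells given dTAG for 48 h.

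The values were the positions of sites in 1 list that joins all samples, and from this list the time points could not be compared and no replicate error or depth could be given. The study describes a separate list of sites changed at each time point, which was not used here. Of depth the study states only a planned minimum of reads per library. A listed site may come from some of the libraries or some of the cells, which cannot be told apart, and all values below are descriptions without a test. Cell identity could be checked only through sites at marker genes. A transcription start site (TSS) had a site no more than 1 kb away in 1 of 12 fibroblast genes, 2 of 5 epithelial, 1 of 3 endothelial and 2 of 3 blood genes. Among all protein-coding genes this was so in 26.9%, which is also the background for the T-box genes.

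Promoter sequences are shown for starts that a site covered and for starts that none did. They are RefSeq promoters of GRCm38.p6 from 250 bases before the start to 30 bases after it, read 5′ to 3′ on the gene's strand, with each CpG in capitals. RefSeq promoters for 6 of the 10 genes were matched by symbol. The first 3 lay wholly inside a site. They are those of Tbx20 (chr9:24774274-24774553, minus strand), Tbx21 (chr11:97115302-97115581, minus strand) and Tbx1 at its outermost start (chr16:18590642-18590921, minus strand).
Tbx20: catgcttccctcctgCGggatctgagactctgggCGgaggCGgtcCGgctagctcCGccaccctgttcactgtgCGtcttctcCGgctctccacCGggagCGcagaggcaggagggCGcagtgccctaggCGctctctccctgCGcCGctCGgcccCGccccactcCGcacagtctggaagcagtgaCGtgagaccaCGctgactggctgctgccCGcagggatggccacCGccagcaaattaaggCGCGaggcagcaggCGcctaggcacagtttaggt
Tbx21: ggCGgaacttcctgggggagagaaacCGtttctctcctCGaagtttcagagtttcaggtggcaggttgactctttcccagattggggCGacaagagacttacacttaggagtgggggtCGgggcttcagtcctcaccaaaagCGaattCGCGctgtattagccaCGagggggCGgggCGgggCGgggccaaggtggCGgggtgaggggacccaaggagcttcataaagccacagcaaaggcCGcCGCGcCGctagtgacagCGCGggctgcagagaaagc
Tbx1: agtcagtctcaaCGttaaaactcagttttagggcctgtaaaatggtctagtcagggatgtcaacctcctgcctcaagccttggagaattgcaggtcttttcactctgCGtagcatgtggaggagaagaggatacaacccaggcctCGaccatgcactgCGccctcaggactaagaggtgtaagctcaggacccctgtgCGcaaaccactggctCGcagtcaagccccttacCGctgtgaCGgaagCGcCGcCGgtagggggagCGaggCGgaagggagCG
The next 2 lay outside every site. They are those of Tbx18 (chr9:87731231-87731510, minus strand) and Tbx6 (chr7:126781233-126781512, plus strand).
Tbx18: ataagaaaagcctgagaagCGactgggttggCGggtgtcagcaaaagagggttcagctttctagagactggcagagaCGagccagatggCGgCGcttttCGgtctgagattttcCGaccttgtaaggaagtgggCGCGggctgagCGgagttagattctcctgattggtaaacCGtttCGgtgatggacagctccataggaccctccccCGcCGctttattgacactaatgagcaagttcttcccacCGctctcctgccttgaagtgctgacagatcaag
Tbx6: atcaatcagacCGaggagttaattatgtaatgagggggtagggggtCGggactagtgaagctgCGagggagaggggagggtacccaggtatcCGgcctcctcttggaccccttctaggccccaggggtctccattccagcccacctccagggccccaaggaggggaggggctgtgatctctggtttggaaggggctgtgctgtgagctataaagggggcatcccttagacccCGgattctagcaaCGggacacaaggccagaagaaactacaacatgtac
The 280 bases held 23 CpGs in Tbx20, 19 in Tbx21 and 14 in Tbx1, against 15 in Tbx18 and 6 in Tbx6. Over the full 300 bases of the RefSeq table there were 26, 21, 16, 15 and 7 CpGs in the same order, beside a median of 7 over all its promoters. The bare Tbx18 promoter and the covered Tbx1 promoter thus differed by 1 CpG, in opposite directions over 280 and 300 bases. The Tbx4 promoter of the same table, at a start inside the gene, held 7 CpGs in 280 bases and was also outside every site. A further Tbx1 promoter (chr16:18588870-18589149) held 24 CpGs and lay in the same site as the printed one.

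Of the 10 T-box genes, 8 had at least 1 site in the window, where 61.5% of all protein-coding genes did. Tbx6 and Tbx15 had none. A site near a TSS, that is within 1 kb of it, was found in 5 genes, Tbx1, Tbx2, Tbx5, Tbx20 and Tbx21, against 26.9% of all protein-coding genes. In each of the 5 the annotated 5′ end itself was inside the site, while 21.4% of all protein-coding genes had a TSS inside a site. A site of at least 10 kb was found in the windows of 5 genes, Tbx1, Tbx3, Tbx5, Tbx20 and Tbx21, against 11.9% of all protein-coding genes. At least 50% of the window was covered by sites in 4 genes, Tbx1, Tbx3, Tbx20 and Tbx21, against 6.47% of all protein-coding genes. Tbx3 and Tbx20 lay just above this limit, and without sites under 500 bp the count was 2, Tbx1 and Tbx21. With 10 kb of flank it was 3, without Tbx3, and with 50 kb it was 0.

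The covered share of the window ran from 0% to 67.6%. The order was Tbx21 at 67.6%, Tbx1 at 53.0%, Tbx20 at 51.7%, Tbx3 at 50.6%, Tbx5 at 36.3%, Tbx2 at 16.7%, Tbx4 at 10.0%, Tbx18 at 0.513%, and Tbx6 and Tbx15 at 0%. Because the list pools the replicate libraries, neighbors in this order cannot be set against an error, and Tbx1, Tbx20 and Tbx3 lay close together. The median of the 10 was 26.5%, while it was 1.88% over all protein-coding genes and 9.66% over those with a site. Placed among all protein-coding genes, 3.13% had a window covered at least as much as that of Tbx21, 10.6% as that of Tbx5 and 30.1% as that of Tbx4.

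**Figure D1:**
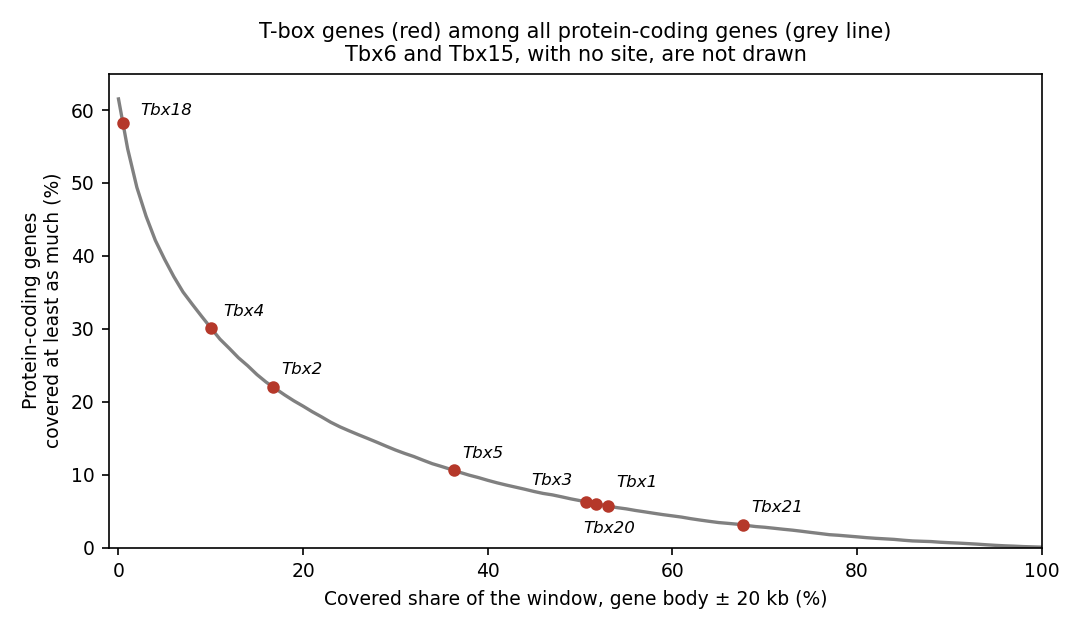
Covered share of the window (x axis, %) against the share of all 21755 protein-coding genes covered at least as much (y axis, %), with the T-box genes that had a site as red points on the grey line of all genes. Tbx21 lies farthest along at 67.6%, Tbx1, Tbx20 and Tbx3 sit together at 50.6% to 53.0%, and Tbx18 lies at the left end at 0.513%.

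The 71 sites were from 221 to 20245 bp wide, with a median of 1028 bp, against a median of 676 bp in the whole list. By width, 23 were under 500 bp, 12 were from 500 to under 1000 bp, 30 from 1000 to under 10000 bp and 6 of at least 10000 bp. The 6 widest made up 43.7% of all covered bases around the T-box genes. In relation to the genes, 5 sites spanned a 5′ end, 17 lay upstream, 26 lay in a gene body or reached into its 3′ end, and 23 lay downstream. Of the 31 sites with bases in a gene body, 15 included exon bases and 16 were wholly intronic.

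**Figure D2:**
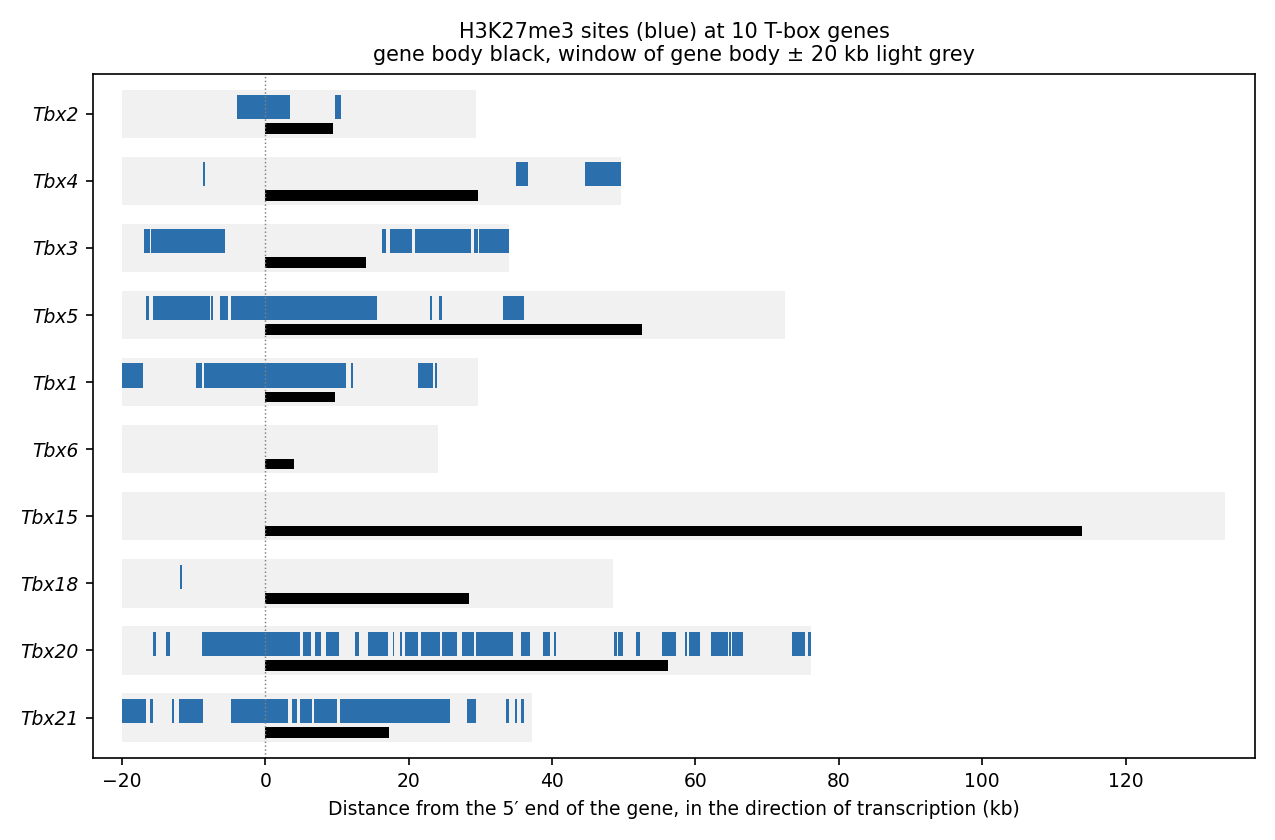
Sites (blue) around each of the 10 T-box genes, drawn by distance from the annotated 5′ end in kb with transcription to the right and the gene body in black. Sites cross the 5′ ends of Tbx1, Tbx2, Tbx5, Tbx20 and Tbx21, flank an empty Tbx3 body, and are missing from the Tbx6 and Tbx15 windows.

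Tbx3 and Tbx5 lie on chromosome 5 in the same direction, Tbx3 at chr5:119670669-119684724 and Tbx5 at chr5:119832668-119885219, both on the plus strand. Tbx3 is a repressor of the limb, mammary gland and cardiac conduction system. Tbx5 is an activator required for forelimb outgrowth and heart formation. From the start of Tbx3 to the end of Tbx5, 57.8% of 214551 bp was covered by 33 sites.

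The Tbx3 gene itself was bare. No base of its 14056-bp body was in a site, and none of its 5 distinct TSSs had a site within 1 kb. The gene lay whole inside a site-free stretch of 21946 bp (chr5:119665050-119686995). On the upstream side this stretch began at the edge of a 10378-bp site (chr5:119654672-119665049), which left 5619 bp free before the 5′ end. On the other side it ended at a 449-bp site that lay 2271 bp after the end of the gene. Around this hole the flanks were dense, with 55.9% of the upstream and 80.8% of the downstream 20 kb covered.

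The stretch between the end of Tbx3 and the start of Tbx5 was the most densely covered of the pair. Over 147943 bp it held 30 sites that covered 70.8%, and its longest site-free run was 9038 bp. Of these sites 10 were under 500 bp, 17 were of 1000 bp or more and 3 were of at least 10 kb. The 3 include the 20245-bp site over the start of Tbx5, of which 15530 bp lay in the Tbx5 body. The widest, of 21280 bp (chr5:119791165-119812444), stood between the windows of both genes, ending 20223 bp before Tbx5.

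Tbx5 was covered over its start and bare at its end. A single site of 20245 bp (chr5:119827953-119848197), the widest in any window of the 10 genes, ran from -4715 to +15529 bp of the 5′ end and held all 3 distinct TSSs. Past it, the gene body held 3 further sites, of 271, 371 and 3024 bp, all in introns. Coverage fell from 71.8% of the 20 kb upstream to 36.5% of the body and 0% of the 20 kb downstream. Exons of Tbx5 were covered to 43.8% and introns to 35.8%.

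Tbx2 and Tbx4 lie on chromosome 11, Tbx2 at chr11:85832551-85841948 and Tbx4 at chr11:85886422-85916097, both on the plus strand. Tbx2 is a repressor related to Tbx3 and acts in heart, limb and eye. Tbx4, the relative of Tbx5, acts in hindlimb and lung mesenchyme. From the start of Tbx2 to the end of Tbx4, 5.46% of 83547 bp was covered by 3 sites.

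Tbx2 carried its coverage at the start. A 7407-bp site (chr11:85828577-85835983) ran from -3974 to +3432 bp of the 5′ end and covered 36.5% of the body. The only other site in the window was one of 866 bp, 324 bp after the end of the gene. The share was 19.9% in the 20 kb upstream and 4.33% in the 20 kb downstream.

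No base of the 29676-bp Tbx4 body was in a site, and none of its 3 distinct TSSs had a site within 1 kb. Like Tbx3, Tbx4 lay whole inside a site-free stretch, here of 43463 bp (chr11:85877999-85921461). The site before it was 260 bp wide and the next one after the gene was 882 bp wide. Most of the coverage in the Tbx4 window came from a 5993-bp site downstream (chr11:85930965-85936957), which reached past the window's edge, so that 33.6% of the downstream and 1.3% of the upstream 20 kb was covered.

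Set side by side, the pairs differed in which gene was covered at its start. In the Tbx2-Tbx4 pair the 5′ end of the gene lying upstream was in a site and that of Tbx4 was not, whereas in the Tbx3-Tbx5 pair the 5′ end of the gene lying downstream was in a site and that of Tbx3 was not. Between the genes there were 4.5 sites per 100 kb with a median width of 563 bp in the Tbx2-Tbx4 pair, and 20.3 per 100 kb with a median of 1712 bp in the Tbx3-Tbx5 pair. The covered share between the genes was 2.53% and 70.8%. The longest run without a site was 34600 bp between Tbx2 and Tbx4, against 9038 bp between Tbx3 and Tbx5.

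**Figure D3:**
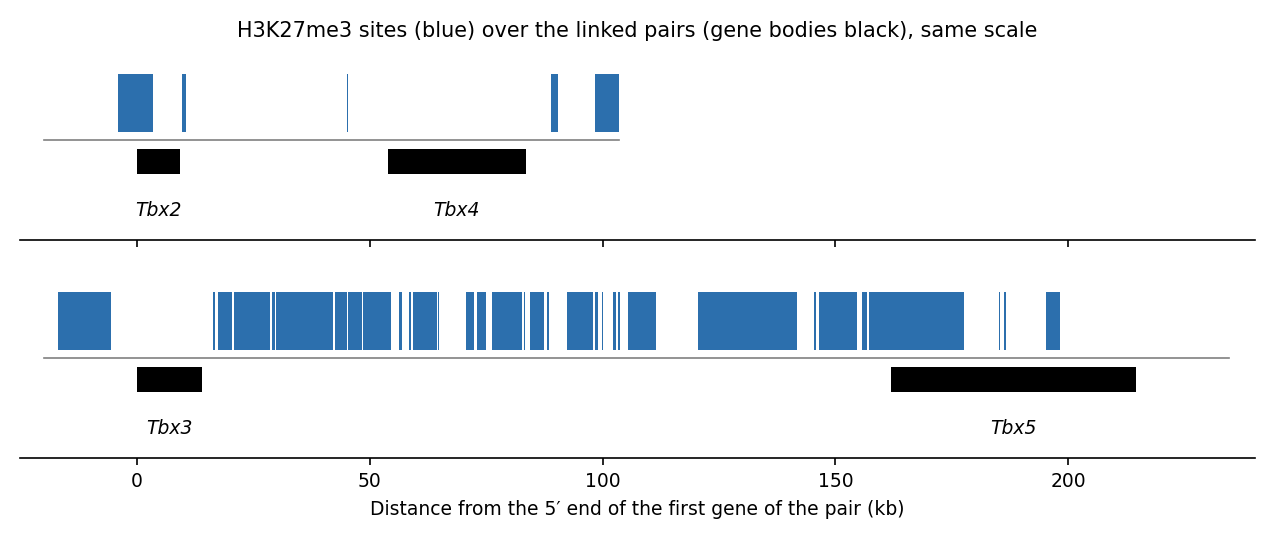
Sites (blue) and gene bodies (black) over both linked pairs with 20 kb on each side, as distance in kb and on the same scale. Sites fill 70.8% of the stretch between Tbx3 and Tbx5 and 2.53% of that between Tbx2 and Tbx4, and the bodies of Tbx3 and Tbx4 hold none.

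Of the genes outside the pairs, Tbx1, Tbx20 and Tbx21 were covered over their starts and through much of their bodies. Tbx1 acts in the pharyngeal arches and outflow tract of the heart. Its whole 9693-bp body (chr16:18580979-18590671, minus strand) lay inside a site of 19812 bp (chr16:18579381-18599192), which ran from -8521 to +11290 bp of the 5′ end and held all 4 distinct TSSs. The other 5 sites of the window were from 240 to 3425 bp wide, and 61.5% of the upstream and 21.7% of the downstream 20 kb was covered.

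Tbx20, a regulator of the developing and adult heart, had 30 sites, the most of the 10 genes, where the median was 5 and that of all protein-coding genes 2. The gene lies at chr9:24718138-24774303 on the minus strand. A 13605-bp site (chr9:24769476-24783080) ran from -8777 to +4827 bp of its 5′ end. All 4 distinct TSSs of the gene lay inside this or another site. The remaining sites were from 221 to 5202 bp wide and followed each other through the 56166-bp body, with a median gap of 682 bp over the window. The covered share was similar upstream (48.4%), in the body (54.9%) and downstream (46.1%), but uneven within them. The 13605-bp site held 8777 of the 9686 covered upstream bases. No base was covered from 41000 to 48000 bp past the 5′ end. Within the gene, 86.8% of coding bases were in sites, against 53.1% of all exon bases and 55.4% of intron bases.

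Tbx21 encodes T-bet, which directs interferon-gamma production in T cells and natural killer cells. It is the only one of the 10 known chiefly from the immune system. Its covered share was the highest with 20 kb of flank, while Tbx1 was highest over gene bodies alone (100% against 90.5% for Tbx21) and Tbx3 with 50 kb of flank (48.9% against 40.4%). The gene lies at chr11:97098071-97115331 on the minus strand and had 13 sites in its window. A 7906-bp site (chr11:97112180-97120085) lay over the 5′ end, from -4754 to +3151 bp. A second, wider one of 15367 bp (chr11:97089499-97104865) covered the 3′ part of the gene and ran on beyond it. Exon bases were covered to 100%, intron bases to 88.9%, and the flanks to 61.3% upstream and 54.2% downstream.

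Tbx6, Tbx15 and Tbx18 had little or nothing. Tbx6 acts in presomitic mesoderm and the formation of somites. Its body (chr7:126781483-126785560, plus strand) was 28680 bp from the nearest site, and the site-free stretch around it was 61937 bp long. Sites resumed on both sides of it, so that 26.4% of the 100 kb on each side of the Tbx6 body was covered.

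Tbx15 acts in skin, skeletal and muscle mesenchyme. Its body (chr3:99240381-99354259, plus strand), the longest of the 10 genes at 113879 bp, lay in a site-free stretch of 626545 bp (chr3:98968054-99594598). The sites that bounded this stretch were 212 and 315 bp wide. None of the 3 distinct TSSs of Tbx15 was near a site.

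Tbx18 acts in the epicardium, the sinoatrial node and the mesenchyme of the ureter. Its body (chr9:87702800-87731260, minus strand) held no covered base. The only site in the window was one of 351 bp (chr9:87742836-87743186), 11576 bp upstream of the 5′ end, and it drops out if sites under 500 bp are left aside. From that site toward and past the gene, 452450 bp were free of sites and held the whole body.

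**Figure D4:**
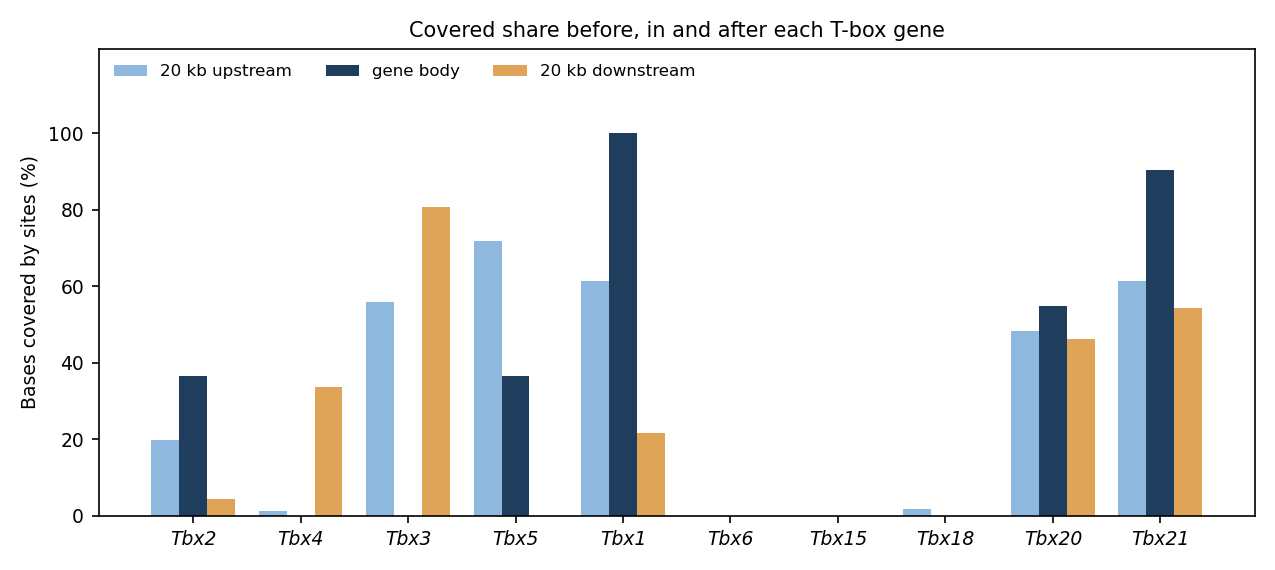
Share of bases covered by sites (y axis, %) in the 20 kb upstream, the gene body and the 20 kb downstream of each T-box gene, drawn as bars that start at 0. The body bar is at 100% for Tbx1 and 90.5% for Tbx21. It is missing for Tbx3, Tbx4, Tbx6, Tbx15 and Tbx18. Of these, Tbx3 has both flanks covered, and Tbx4 has 1.3% upstream and 33.6% downstream.

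CpG islands, stretches rich in unmethylated CpG in most cells, lay at a TSS in 8 of the 10 genes, the exceptions being Tbx5 and Tbx6, and in 58.3% of all protein-coding genes. A TSS was near a site in 4 of these 8, Tbx1, Tbx2, Tbx20 and Tbx21, against 26.6% of all protein-coding genes with such an island. Tbx5 had a site over its start without an island there. Tbx3, Tbx4, Tbx15 and Tbx18 had an island at a TSS and no site there.

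The windows held 29 islands, of which 13 were touched by a site, against 26.2% of all islands computed in the genome. Each of the 13 was covered over its full length, while over the genome 84.9% of touched islands were. An island spanned the annotated 5′ end in 6 genes. Those of Tbx1 (281 bp), Tbx2 (1507 bp), Tbx20 (332 bp) and Tbx21 (766 bp) were covered, and those of Tbx3 (1303 bp) and Tbx4 (216 bp) were not. The lengths of covered and bare islands at 5′ ends overlapped.

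Within Tbx2 the edge of the site split the islands. The 3 islands from 335 to 1507 bp that lay upstream of and at the 5′ end were covered whole, and the 5 islands farther into and past the gene, from 226 to 676 bp, held no covered base. All 5 islands of the Tbx1 window were covered. None of the 3 islands of the Tbx6 window, the 2 of the Tbx15 window and the 2 of the Tbx18 window was, including one of 1564 bp at the start of Tbx18.

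**Figure D5:**
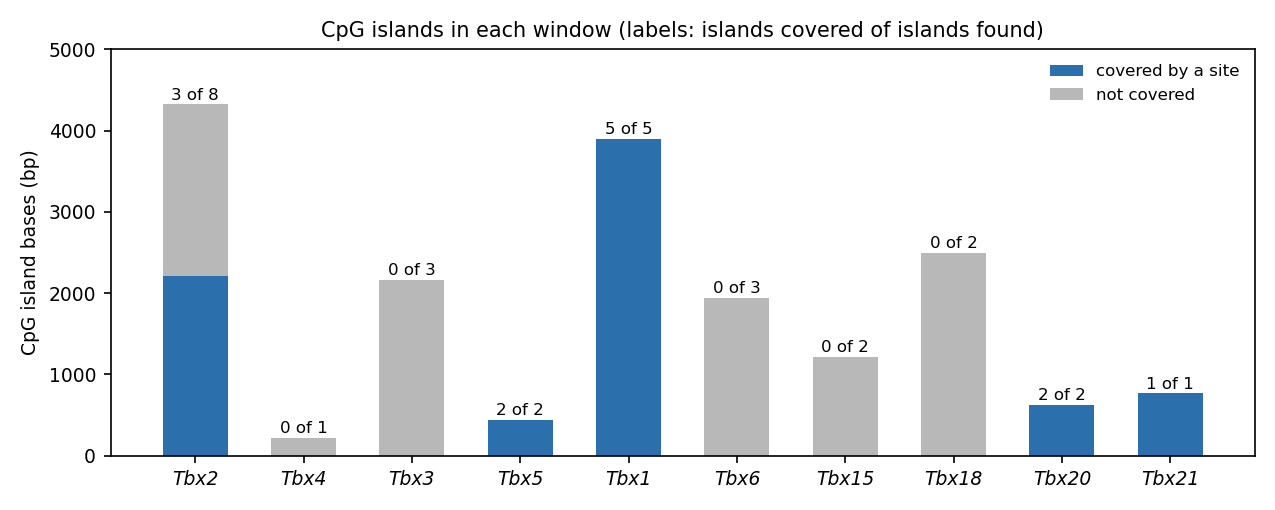
Summed bases of the 29 CpG islands in the windows of the T-box genes (y axis, bp), as stacked bars with covered bases in blue and bare bases in grey, and the number of islands covered above each bar. All 5 islands of Tbx1 are covered, 3 of the 8 of Tbx2, and none in Tbx3, Tbx4, Tbx6, Tbx15 and Tbx18.

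Of the 71 sites, 7 overlapped an island, or 9.86%, against 3.45% of 101305 listed sites on the chromosomes searched for islands. The 71 sites were also wider, with a median of 1028 bp against 676 bp in the whole list, and width was not accounted for. Among the 7, a 3995-bp site at the edge of the Tbx20 window overlapped an island outside that window. These 7 had a median width of 7906 bp and a CpG observed/expected ratio of 0.353 to 0.588. The other 64 had a median width of 868 bp and a median ratio of 0.202. GC content of the 71 sites ran from 39.7% to 62.4% with a median of 48.3%. Sites around Tbx20 were the poorest in GC, with a median of 43.2%, and its window was the poorest of the 10 at 41.0%.

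Non-coding genes shared the wide sites with T-box genes. The long intergenic RNA gene 4930588K23Rik started inside the 19812-bp Tbx1 site on the opposite strand, Gm43050 lay whole inside the 20245-bp Tbx5 site, and Gm29824 started inside the 13605-bp Tbx20 site. The 15367-bp Tbx21 site held the processed pseudogene Gm11573. Upstream of Tbx3, the 10378-bp site overlapped Gm16064 and the antisense gene Tbx3os1, of whose 6 distinct TSSs 4 were near a site.

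Of the 16 protein-coding genes nearest on each side of a linked pair or of a single T-box gene, which leaves out Gm11444 between Tbx2 and Tbx4, 2 had a TSS near a site, Dpy19l2 next to Tbx20 and Tbkbp1 next to Tbx21, against 26.9% of all protein-coding genes. A site lay in the own window of 10 of the 16, near the share of 61.5% over all protein-coding genes. These windows can overlap those of the T-box genes. The widest site of Bcas3 was the 7407-bp site of Tbx2, and that of Gnb1l the 19812-bp site of Tbx1. Tbkbp1, whose product binds the kinase TBK1, had all 5 distinct TSSs inside sites, and its body was covered to 23.0%. Beside Tbx6, both Ypel3 and Ppp4c had no site in their own windows, nor did Wars2 beside Tbx15, Nt5e beside Tbx18, Brip1 beside Tbx4 or Gm10181 beside the densely covered Tbx20.

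The 7 remaining T-box genes of the mouse also ran from bare to densely covered. Of these, 6 had a TSS near a site, against 26.9% of all protein-coding genes, and 3 had at least 50% of the window covered, against 6.47%. Eomes, which acts in early mesoderm, endoderm and T cells, was covered to 61.7%, T, which encodes Brachyury, to 59.0%, and Tbx19, the corticotroph factor of the pituitary, to 57.4%. Tbx10 was covered to 20.7%, Tbx22, a palate gene, to 8.09%, and Tbr1, of the cerebral cortex, to 7.77%. Mga, which pairs a T-box with the dimerization domain of MAX partners and is broadly expressed, had no site in its window, the nearest lying 23309 bp from its 5′ end.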

How the data were processed

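The authors profiled H3K27me3 in iMEF cells and the deposited file used here is 1 list of the sites identified over all samples, with the chromosome, start and end of each site and no read count, score or library column. Per the methods and the submitters' processing notes, they trimmed reads, aligned them with BWA to mm10 (GRCm38.p6), filtered with SAMtools, merged replicates and called broad peaks with MACS2. Versions, cutoffs and the rule that joined peaks of different samples are not given in the sources used here. A broad caller sets the smallest width and the gaps it bridges, so site counts depend on it more than covered shares do.

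All sites were used as deposited. Starts were read as counted from 0, because the narrowest site then spanned 200 bp, and are printed counted from 1. Gene bodies and TSSs came from GENCODE M21, and sequence from GRCm38.p6. A site was near a TSS if it came within 1 kb of one. CpG islands were computed in repeat-masked sequence as maximal segments (17 for a CpG, -1 for another base) of at least 200 bp, 50% GC and a CpG observed/expected ratio of 0.6. Window counts were tested on simulated data, with 0 of 2000 windows differing from a count base by base. Python 3.11.15, numpy 2.4.6, pandas 2.3.3 and minimap2 2.31-r1302 were used. Groups came from sample titles and, for the inputs given dTAG, from the time point listed for the sample. No comparison of groups and no test could be made from a pooled list.

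The genes, gene lists and measures were chosen with earlier results of these data known. The genes named were the 10 T-box genes, the nearest protein-coding genes on each side of a linked pair or of a gene outside the pairs, genes under sites of at least 10 kb, and the other T-box genes. Alternatives were other flanks, site widths, TSS distances, joining of near sites and RefSeq gene bodies.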

Additional observations from a re-analysis of the deposited data

How the results depend on the processing

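The count of T-box genes with a site near a TSS stayed at 5 under the 7 alternatives run on it. With gene bodies alone (0 kb of flank) 5 genes had a site, with 31 sites in all and a median covered share of 18.3%, and with 50 kb of flank there were 109 sites. Leaving out sites under 1000 bp left 36 sites and a covered share of 54.8% in the Tbx3-Tbx5 region. Joining sites less than 1000 bp apart gave 33 sites and 62.4% there, and less than 3000 bp apart 22 sites and 66.9%. With the joining at 3000 bp, the covered share of the window rose to 72.2% for Tbx20 and 85.9% for Tbx21. It was 55.5% for Tbx1 and 53.7% for Tbx3, so Tbx20 no longer lay close to them. RefSeq gene bodies, chosen after seeing the data, gave a median covered share of 31.9%, with Tbx5 at 47.0%. Each of these settings changes the windows, the sites kept or the joining of near sites. No paired analysis was possible because the list joins all libraries. None of the 10 windows aligned to a patch sequence of the assembly at 99% identity, while the Tbx1 window also aligned whole to an alternate strain sequence. The depth obtained is not given, so no signal and signal below the caller's threshold cannot be told apart.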

Other observations

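The order of the T-box genes changed in wider surroundings. In the 500 kb on each side of the gene body, sites covered 39.2% around Tbx5, 27.2% around Tbx3, 23.6% around Tbx6 and 20.6% around Tbx21. The share was 8.17% around Tbx20, 4.12% around Tbx1, 1.96% around Tbx2 and 1.92% around Tbx4. It was 0.644% around Tbx15 and 0.339% around Tbx18. Tbx6, with no site in its window, thus lay in surroundings covered more than those of Tbx1, whose body was covered whole.

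The letters AGGTGTGA, the core that many T-box factors bind, were searched on both strands, with no overlap with another motif considered. They occurred in 1.28% of 32851 RefSeq promoters of 300 bases and in 0 of the 7 promoters of T-box genes. In the windows, which differ in length, they occurred 11.5 times per 100 kb around Tbx4 (8 matches), 8.76 around Tbx18 (6), 6.81 around Tbx6 (3) and 5.55 around Tbx3 (3). Around the other genes they occurred from 1.75 (Tbx21) to 4.16 (Tbx20) times per 100 kb. Within sites they occurred 2 times each around Tbx3 and Tbx20 and 1 time each around Tbx18 and Tbx21.

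Of 18 other genes that start in the windows, 9 had a TSS near a site and 9 did not. They include coding genes, non-coding genes and pseudogenes, and no share over all such genes was computed. The 3 named next were picked after their values were seen. The transcript 2610027K06Rik, which starts on the opposite strand beside Tbx2, had 2 of 3 distinct TSSs inside the 7407-bp site. Tbx3os2, just downstream of Tbx3, had its TSS 51 bp from a site. Fam57b, which starts within the Tbx6 window, had 5 of 7 distinct TSSs near a site, and these lay outside the window.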
